A study of Mus musculus with 24 samples.

Results

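The U3 small nucleolar RNA and the mRNAs for the proteins of its particle were followed in epididymal white adipose tissue (eWAT). The mice were fed with or without nicotinamide riboside, a vitamin B3 from which NAD is made. The set holds 9 genes, Rnu3b1, Fbl, Nop56, Nop58, Snu13, Rrp9, Mphosph10, Imp3 and Imp4, among 13014 named genes that passed the filter on dim probes, and 12 of the 55681 probes on the array measured them. The set was chosen by the p-value of Rnu3b1 between the diets, which was low in earlier results of these data, and the proteins were added as partners of that RNA. The differences between diets are therefore given below as a description: their intervals show spread, and counts of calls stand only beside those of all features. C57BL/6JRcc males aged 8 or 9 weeks first ate the control diet and then, for 18 weeks, a semi-synthetic diet with 30 mg nicotinamide riboside per kg (Ctrl NR, 12 mice) or 0 mg (No NR, 12 mice). Both diets were equally low in tryptophan, the other precursor of NAD, and had 40% of their energy from fat. Mice were 28 or 29 weeks old when they were fasted, refed and killed, and all groups shared this regime. Each mouse had its own 2-colour array, with its RNA in Cy5 and a reference pool in Cy3 that also held eWAT of other diets and of 4 females.

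U3 is the most abundant small nucleolar RNA of the box C/D class and does not guide methylation. It pairs with the precursor of ribosomal RNA in the nucleolus, nucleates the small-subunit processome and is needed for the cuts that release 18S ribosomal RNA. Its particle has the core shared by all box C/D particles: the methyltransferase fibrillarin (Fbl), the scaffold proteins Nop56 and Nop58, and Snu13 (older name Nhp2l1), which binds the kink-turn of the RNA and also sits in the spliceosome. Rrp9 binds U3 and no other box C/D RNA. Mphosph10, Imp3 and Imp4 form a complex that joins U3 in the processome and helps it pair with the precursor.

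A log2 ratio below is mouse over pool for 1 probe, after background correction and loess normalization within the array, so levels are not comparable between genes. The arrays read RNA, so each value given for a protein is that of its mRNA, and no protein was measured. All 12 probes were well above background on 24 of 24 arrays, none was saturated and none was flagged as an outlier. The share of spots well above background in Cy5 ran from 34.5% to 50.7% over the arrays, with a median of 44.7%. The arrays lay on 5 slides, each with 1 to 4 mice of each diet, and slide and scan coincide. Of the listed markers, 19 of 19 for adipocytes and 28 of 29 for macrophages passed the filter on dim probes, and Adipoq and Plin1 were well above background on 24 of 24 arrays. In this bulk tissue, fewer cells of a type and less RNA per cell cannot be told apart. The number of arrays limits the precision.

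Rnu3b1 encodes 1 of several near-identical U3 copies of the mouse genome, and 1 probe (A_55_P2009217, for accession NR_004415) measured it. The probe cannot be assumed to tell Rnu3b1 from its copies, so its level is that of U3b RNA as far as the probe binds it. U3 has no poly(A) tail, and what share of it the linear amplification named in the labels labels was not tested. In Ctrl NR its log2 ratio had a lowest value of -1.21, a median of -0.71 and a highest value of 0.17. In No NR these were -0.22, 0.13 and 0.48. The diets overlapped, but 8 Ctrl NR mice lay below every No NR mouse, 4 No NR mice lay above every Ctrl NR mouse, and 12 of 12 No NR mice lay above the Ctrl NR median. Means were -0.56 ± 0.47 (SD, n = 12) and 0.12 ± 0.22 (SD, n = 12), so that No NR was higher by 0.67 on the log2 scale (SE 0.139, 95% interval 0.39 to 0.96), or 1.6-fold. This difference is what chose the set. Raw Cy5 signals ran from 101 to 900 with a median of 294, over a local background of 35.

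Among the Ctrl NR mice the largest gap between neighbouring Rnu3b1 values was 0.5. Below it 8 mice lay between -1.21 and -0.66, and above it the other 4 lay between -0.16 and 0.17. Any list of values has a largest gap, and whether these mice form separate groups was not tested. The lowest were mouse 88 at -1.21, mouse 95 at -1.01 and mouse 84 at -0.94. The 4 at the upper end, mouse 64 at -0.16, mouse 68 at 0.04, mouse 104 at 0.1 and mouse 77 at 0.17, lay inside the range of the No NR mice.

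**Figure D1:**
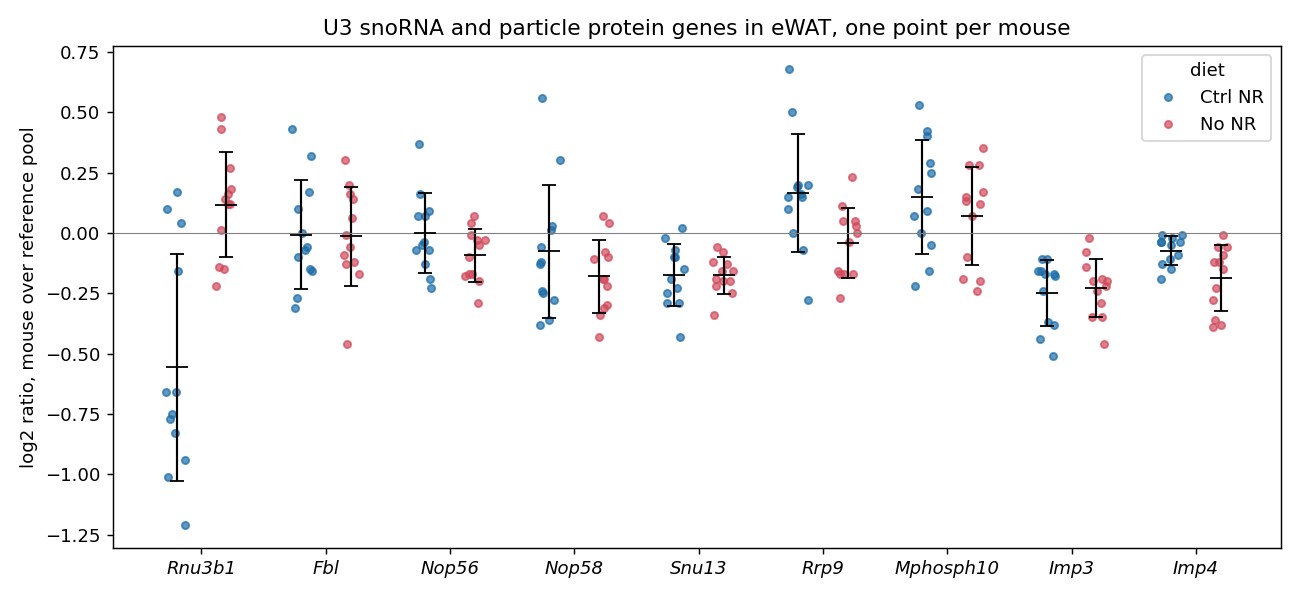
Log2 ratio of mouse over pool (y axis) for the brightest probe of each of the 9 genes (x axis), 1 point per mouse, Ctrl NR in blue and No NR in red, with bars for mean ± SD of 12 mice. Rnu3b1 runs from -1.21 to 0.17 in Ctrl NR and from -0.22 to 0.48 in No NR, and the ranges of the diets overlap in all 9 genes.

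The mRNAs of the 4 core proteins differed little between diets. Fibrillarin had a lowest, median and highest log2 ratio of -0.31, -0.06 and 0.43 in Ctrl NR and of -0.46, -0.03 and 0.3 in No NR, a difference of -0.01 (95% interval -0.18 to 0.17). Nop56 had -0.23, -0.05 and 0.37 in Ctrl NR against -0.29, -0.07 and 0.07 in No NR, a difference of -0.09 (-0.22 to 0.04) on its brighter probe and 0.01 (-0.19 to 0.2) on its dimmer one. For both genes the ranges of the diets overlapped, with the upper Ctrl NR values above all No NR mice. Nop58 had -0.38, -0.12 and 0.56 in Ctrl NR against -0.43, -0.19 and 0.07 in No NR, and differed by -0.11 (-0.29 to 0.08). Snu13 had -0.43, -0.17 and 0.02 against -0.34, -0.18 and -0.06, with a difference of 0 (-0.11 to 0.11) on the brighter probe and -0.07 (-0.19 to 0.06) on the dimmer one. In these intervals the largest rise that the mRNAs of the core proteins allow is 0.2 and the largest fall is 0.29. These sizes are not set against the difference of Rnu3b1, since that value chose the set.

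Rrp9, the protein particular to U3, had a lowest, median and highest log2 ratio of -0.28, 0.15 and 0.68 in Ctrl NR and of -0.27, -0.02 and 0.23 in No NR. Only 1 of 12 No NR mice lay above the Ctrl NR median. Its means were 0.16 ± 0.25 and -0.04 ± 0.15 (SD, n = 12 each), a difference of -0.21 (SE 0.082, 95% interval -0.37 to -0.04, limma adjusted p = 0.261).

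In the Mphosph10, Imp3 and Imp4 complex, Imp4 had the most uniform Ctrl NR values of the set. They ran from -0.19 over a median of -0.05 to -0.01 in Ctrl NR, and from -0.39 over -0.14 to -0.01 in No NR. Of the No NR mice 1 lay above the Ctrl NR median, and the difference was -0.11 (95% interval -0.22 to -0.01). Imp3, the brightest probe of the set, had -0.51, -0.18 and -0.11 in Ctrl NR against -0.46, -0.21 and -0.02 in No NR, a difference of 0.02 (-0.1 to 0.14). Mphosph10 gave unlike answers on its 2 probes. The brighter one had -0.22, 0.14 and 0.53 in Ctrl NR against -0.24, 0.12 and 0.35 in No NR, a difference of -0.08 (-0.26 to 0.1). The dimmer one had -0.09, 0.07 and 0.64 against -0.52, -0.11 and 0.09, a difference of -0.24 (-0.4 to -0.08). Within diets the probes had a Pearson r of -0.2 with each other, against 0.541 for the probes of Nop56 and 0.424 for those of Snu13, so a level for Mphosph10 is uncertain.

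**Figure D2:**
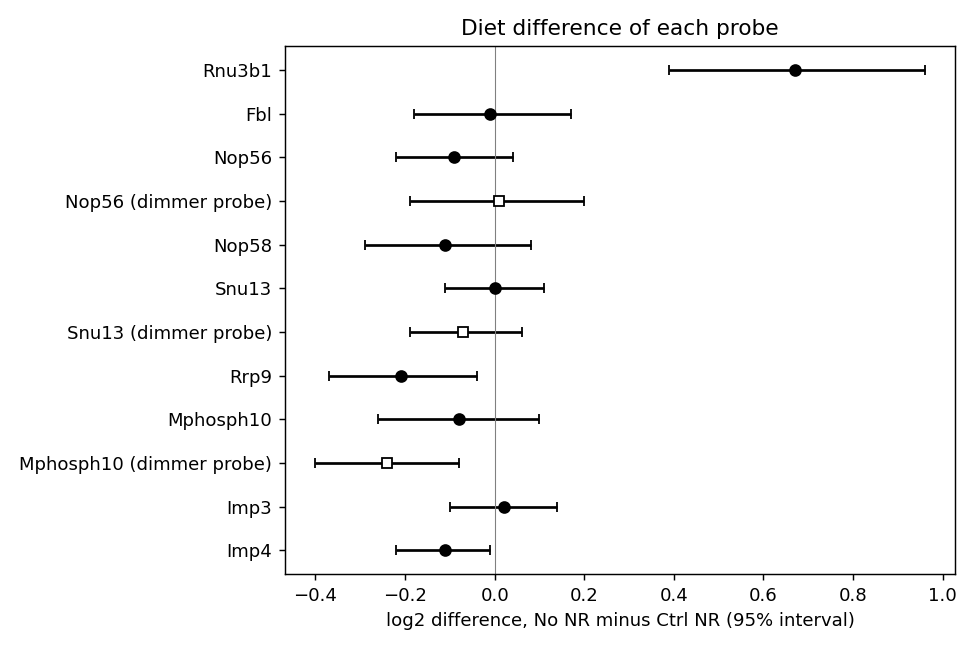
Difference of the mean log2 ratio, No NR minus Ctrl NR (x axis), with its 95% interval for each of the 12 probes (y axis), filled circles for the brightest probe of a gene and open squares for a dimmer one. Rnu3b1 lies at 0.67 and the 8 protein genes between -0.21 and 0.02 on their brightest probes.

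Of the 8 protein genes, 1 was higher and 7 were lower in No NR, with a median difference of -0.09, beside a median of -0.01 and 47.6% of features higher over all 21051 features tested; the signs of Fbl, Snu13 and Imp3 turned under at least 1 other scaling. With limma and Benjamini-Hochberg adjustment 0 of the 9 members and 0 of all features (0%) had an adjusted p under 0.05. At an unadjusted p under 0.05, 1 member (Rnu3b1) was higher, beside 6.87% of all features, and 2 members (Rrp9 and Imp4) were lower, beside 7.23%. Those counts come from the contrast that chose the set, and nothing is read from them. Scaling moves the balance of all features: the unadjusted calls were 1446 higher and 1522 lower here, and 2754 and 733 with the scanner software's processed signals. Under that scaling Rnu3b1 differed by 0.96, and with median centring by 0.57.

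Within each slide Rnu3b1 was higher in No NR, by 0.53, 0.62, 0.35, 0.66 and 0.88 on slides 1 to 5, and by 0.61 (95% interval 0.35 to 0.88) with slide as a block. These are the values that chose the set, split by slide, and nothing is read from them. The same sign on all 5 slides was seen upward for 1 of 9 members, beside 6.42% of all features, and downward for 0 of 9, beside 7.06%. Rrp9 was lower on 4 of 5 slides (-0.47, -0.15, -0.27, 0.04 and -0.3), and so was Imp4. Fibrillarin changed sign across slides, from -0.27 on slide 1 to 0.22 on slide 5. The dimmer Mphosph10 probe was lower on all 5, by values from -0.44 to -0.06.

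The same pool was on every array, and its Cy3 signal is the denominator of the ratio that chose the set, so its values are a description too. For Rnu3b1 the Cy3 signal differed between diets by -0.05 on the log2 scale and the Cy5 signal by 0.63. Over the 12 probes the Cy3 differences ran from -0.05 to 0.06. The Cy3 signal of Rnu3b1 had an SD of 0.21 over arrays, against 0.39 in Cy5 within diets. The SD of the pool leaves out the spread from preparing the RNA of each mouse. It therefore does not split the Cy5 spread into technical and biological parts. For the other 11 probes the Cy3 SD lay between 0.05 and 0.15.

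Mice of 1 diet differed unequally from gene to gene. Within diets, the log2 ratio of Rnu3b1 had an SD of 0.37, at percentile 91.3 of all features, while Imp4 (0.1), Snu13 (0.11) and Imp3 (0.13) lay at percentiles 0.893, 1.12 and 6.63. The median SD of all features was 0.2. Rnu3b1 spread 2.17 times as widely in Ctrl NR as in No NR, at percentile 94.4 of that ratio, whose median over all features was 1.21. Imp4 was the other way round, with a ratio of 0.439 at percentile 0.632. These percentiles are descriptions of the 24 mice.

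Whether mice with more U3 also had more mRNA for its proteins was tested within diets, after removing each diet's mean. None of the 8 correlations passed an adjusted p of 0.05 over the 36 pairs of members. On the brightest probes Pearson r ran from -0.363 for Fbl (Spearman rho -0.316, adjusted permutation p = 0.259, 24 mice) to 0.302 for Mphosph10 (rho 0.307, adjusted permutation p = 0.446). The dimmer probes, which were not tested, had r = 0.255 for Nop56, 0.297 for Snu13 and -0.498 for Mphosph10. The 2 probes of Mphosph10 thus had opposite signs with Rnu3b1. Rrp9 gave r = 0.0864 (rho 0.182) and Imp4 r = 0.00626 (rho 0.0948). The result depends on the normalization: with median centring in place of loess all 8 passed with positive r, and with the Cy5 signal alone Fbl (r = -0.53) and Mphosph10 (0.587) passed.

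Among the proteins themselves 17 of 28 pairs had a positive and 11 a negative r, with a median of 0.0488. Of these, 3 pairs passed by both r and rho, with each gene taken by its brightest probe. The dimmer probes alone were not tested in pairs, and the 2 probes of Mphosph10 had r = -0.2 with each other. Nop56 and Mphosph10 rose and fell together (r = 0.646, rho = 0.624, adjusted permutation p = 0.0236 and 0.0178, 24 mice), with 0.786 in Ctrl NR, 0.412 in No NR, 0.659 with slide removed and 0.561 without the 2 mice farthest from the median of Nop56. Nop58 and Snu13, which share the particle core, had r = 0.621 and rho = 0.713 (adjusted permutation p = 0.0491 and 0.0119), with 0.666 in Ctrl NR, 0.479 in No NR, 0.484 with slide removed and 0.554 without the 2 farthest mice. Rrp9 and Imp3 ran opposite to each other (r = -0.631, rho = -0.623, adjusted permutation p = 0.0236 and 0.0178), with -0.656 in Ctrl NR, -0.617 in No NR, -0.674 with slide removed and -0.534 without the 2 farthest mice. Imp3 and Imp4, partners in 1 complex, had r = -0.526 (adjusted permutation p = 0.0499) but missed the threshold by rho (-0.477, p = 0.0865), and Nop56 and Imp3 passed by rho alone (-0.671, p = 0.0119, against r = -0.529, p = 0.0624).

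These pairs differ in how firmly they stand. Nop56 and Mphosph10 passed under all 9 alternatives run for correlations (r from 0.562 to 0.886), but not without Ctrl NR mouse 64 (adjusted p = 0.0722), Ctrl NR mouse 108 (0.0671) or No NR mouse 118 (0.0586), where r was 0.621, 0.59 and 0.615 by the same permutation test. None of those 9 alternatives took the dimmer probe of Mphosph10 alone. Nop58 and Snu13 lost the call with the processed signals (r = 0.262), with the authors' value table (0.586) and with slide as a block (0.484), and without any of 14 single mice. Rrp9 and Imp3 lost it with the processed signals (r = -0.27) and the authors' table (-0.572), and turned to r = 0.878 with median centring. That pair also missed the threshold without Ctrl NR mouse 64 (r = -0.583, adjusted permutation p = 0.0722), Ctrl NR mouse 115 (-0.511, p = 0.1) or No NR mouse 118 (-0.599, p = 0.0586). Under that centring all 28 pairs of proteins passed with positive r.

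**Figure D3:**
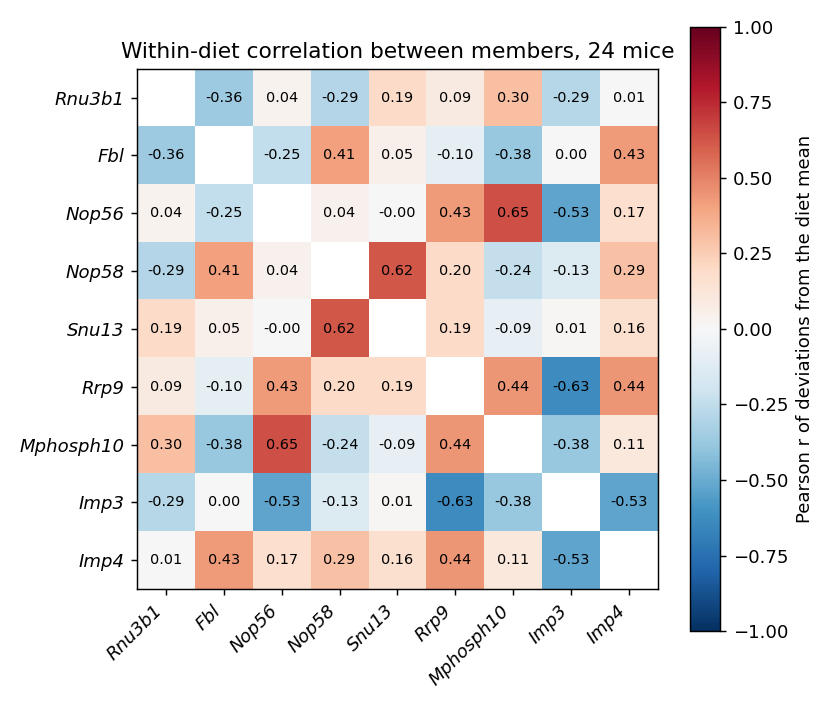
Pearson r between the log2 ratios of each pair of the 9 genes over 24 mice after removing each diet's mean, with red for positive and blue for negative values and r printed in each square. Each gene is shown by its brightest probe. The row of Rnu3b1 runs from -0.36 to 0.30, and the most extreme squares are Nop56 with Mphosph10 at 0.65 and Rrp9 with Imp3 at -0.63.

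The stretches before the start sites of the pairs that rose and fell together are shown so that their letters can be compared. RefSeq promoters (build GRCm38.p6) were matched by symbol for 7 of the 9 genes, without Rnu3b1 and Fbl. Each stretch is the 250 bases before the gene's start, 5′ to 3′ on the gene's strand, and capitals mark CCAAT (the CCAAT box) and GGGCGG (the GC box) on either strand. Nop56 lies at chr2:130274162-130274411 (plus strand) and Mphosph10 at chr7:64392237-64392486 (minus strand). Nop58 lies at chr1:59684756-59685005 (plus strand) and Snu13 at chr15:82047599-82047848 (minus strand).
Nop56: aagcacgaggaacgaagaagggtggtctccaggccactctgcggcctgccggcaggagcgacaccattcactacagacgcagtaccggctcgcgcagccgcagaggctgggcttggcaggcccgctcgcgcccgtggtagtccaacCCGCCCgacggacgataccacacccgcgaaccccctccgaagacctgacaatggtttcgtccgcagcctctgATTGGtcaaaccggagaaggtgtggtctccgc
Mphosph10: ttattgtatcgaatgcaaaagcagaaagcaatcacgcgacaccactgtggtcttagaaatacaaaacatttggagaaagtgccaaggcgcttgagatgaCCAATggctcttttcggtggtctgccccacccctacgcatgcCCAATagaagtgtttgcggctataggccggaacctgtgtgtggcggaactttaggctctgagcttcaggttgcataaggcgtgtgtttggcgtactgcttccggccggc
Nop58: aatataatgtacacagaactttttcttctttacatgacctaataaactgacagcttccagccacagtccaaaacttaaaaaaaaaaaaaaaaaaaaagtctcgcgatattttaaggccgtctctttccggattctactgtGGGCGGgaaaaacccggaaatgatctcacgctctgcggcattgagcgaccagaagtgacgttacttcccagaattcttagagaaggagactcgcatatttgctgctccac
Snu13: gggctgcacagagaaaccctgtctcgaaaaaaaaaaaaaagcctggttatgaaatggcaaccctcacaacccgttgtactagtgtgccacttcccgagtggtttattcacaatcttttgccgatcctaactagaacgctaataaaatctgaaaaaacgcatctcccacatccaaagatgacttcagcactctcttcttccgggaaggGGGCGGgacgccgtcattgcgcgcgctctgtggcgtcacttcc
CCAAT occurs before 5 of the 7 genes (Imp3, Imp4, Mphosph10, Nop56 and Rrp9), beside 33.8% of all 32851 promoters, and GGGCGG before 3 (Nop56, Nop58 and Snu13), beside 32.7%. The E-box CACGTG occurs before Imp4 alone, beside 6.02% of promoters, and CCGGAAG, a motif of ETS factors, before Mphosph10 and Snu13, beside 6.91%. Both strands were searched, no motif is contained in another, and a match describes these letters and shows no binding.

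Rnu3b1 ran with some other small RNAs instead. For those that passed by both r and rho, r was higher in Ctrl NR than in No NR, but this was not tested. Rnu3b1 spread 2.17 times as widely in Ctrl NR, so the r values of the diets rest on unlike ranges. The array measured 7 more structural or nucleolar RNAs, and their correlation with Rnu3b1 within diets was computed after the data had been seen. Rnu1b6, a copy of the U1 RNA that recognises 5′ splice sites, had r = 0.832 and rho = 0.871 over 24 mice (permutation p = 1e-05, the smallest that 100000 resamples can give, adjusted p = 7e-05 over 7 tests). It was 0.869 in Ctrl NR, 0.635 in No NR, 0.812 with slide removed and 0.764 without the 2 mice farthest from the median. Snora74a, a box H/ACA nucleolar RNA, had r = 0.797 and rho = 0.744 (adjusted permutation p = 0.000175 and 0.00101), with 0.914 in Ctrl NR, 0.335 in No NR, 0.799 with slide removed and 0.714 without the 2 farthest mice. Rnu2-10, a copy of the spliceosomal U2 RNA, had r = 0.617 and rho = 0.663 (adjusted permutation p = 0.00922 and 0.00306), with 0.715 in Ctrl NR, 0.129 in No NR, 0.546 with slide removed and 0.62 without the 2 farthest mice. Cut at the largest gap in Rnu3b1, the Ctrl NR mice were 8 low and 4 high ones, and whether these are separate groups was not tested. How far these r values only set the low mice against the high ones was not tested either.

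Mouse 64 was at 1.14 for Rnu1b6 and at 1.78 for Rnu2-10, the highest Ctrl NR values of both, and without it r with Rnu2-10 was 0.691. The remaining 4 RNAs were less alike. Rmrp, the RNA of RNase MRP, which also cuts the ribosomal precursor, had r = 0.486 (adjusted permutation p = 0.0692) and rho = 0.562 (adjusted permutation p = 0.00987). Snora47 had r = 0.317 and rho = 0.309, Rn28s1 (28S ribosomal RNA, 22 mice) r = 0.112 and rho = -0.0367, and Rnu12 of the minor spliceosome r = -0.0792 and rho = -0.0896, and none of the 3 passed.

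**Figure D4:**
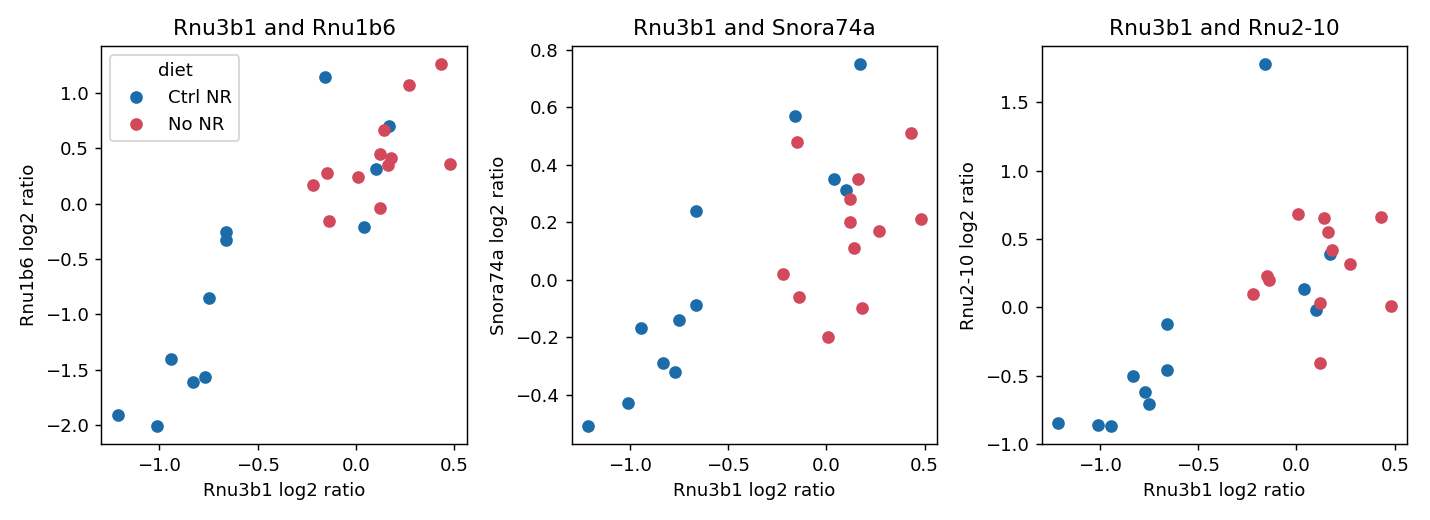
Log2 ratio of Rnu3b1 (x axis) against Rnu1b6, Snora74a and Rnu2-10 (y axes, 3 panels), 1 point per mouse, Ctrl NR in blue and No NR in red. With each diet's mean removed r is 0.832, 0.797 and 0.617 over 24 mice. In Ctrl NR alone r is 0.869, 0.914 and 0.715, and in No NR alone 0.635, 0.335 and 0.129.

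Between diets these RNAs differed unequally. Rnu1b6 had a lowest, median and highest log2 ratio of -2.01, -0.59 and 1.14 in Ctrl NR and of -0.16, 0.35 and 1.26 in No NR, the largest rise of all features at 1.09 (SE 0.297, 95% interval 0.48 to 1.7, limma adjusted p = 0.105). Rnu2-10 differed by 0.51 (limma adjusted p = 0.282), from a median of -0.48 to 0.28. Snora74a, which ran with Rnu3b1 from mouse to mouse, differed by only 0.14 between diets (95% interval -0.12 to 0.4, limma adjusted p = 0.633), with medians of -0.12 and 0.18. Snora47, Rnu12, Rn28s1 and Rmrp differed by values between -0.09 and 0.09. Signal was low for Snora74a and Snora47, well above background on 17 and 8 of 24 arrays, and Rnu2-10 reached it on 21. Of 12 Ctrl NR and 12 No NR mice these were 6 and 11 for Snora74a, 1 and 7 for Snora47, and 9 and 12 for Rnu2-10. Snora47 thus passed the filter through No NR alone. The Ctrl NR values of Snora74a and Snora47, and r values that rest on them, lie partly near background. Terc, the telomerase RNA, did not pass the filter.

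An unnamed probe, A_55_P2138100, stood at the head of earlier results of these data. It split the Ctrl NR mice into separate blocks, so no r over them is given. The permutation test over all 24 mice within diets passed with a negative sign (adjusted p = 0.0264 by Pearson r and 0.0422 by rho), the only such relation of Rnu3b1 with a list or this probe, and it sets these blocks against each other. In 7 Ctrl NR mice it lay between 0.78 and 1.42, and these had Rnu3b1 between -1.21 and -0.66. In the other 5 Ctrl NR mice it lay between -1.42 and -0.08, with Rnu3b1 between -0.66 and 0.17. In No NR it lay between -1.83 and -0.73. Inside the block of 7 mice r with Rnu3b1 was -0.221 and rho -0.393 (exact permutation test, p = 0.639 and 0.396), and within No NR r was 0.156. So few mice over so narrow a range cannot show whether a relation exists inside the block. The probe itself differed between diets, with a mean of 0.22 in Ctrl NR and -1.3 in No NR. With its value as a term in the fit the diet difference of Rnu3b1 was 0.22 (SE 0.146) instead of 0.67. Such a fit cannot tell the probe from the diet and reuses the contrast that chose the set, so nothing is read from it. The part of this probe in the result was not tested further, and it carries no gene name in the files.

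Cell type lists were set beside the members. Between diets, No NR was higher for 26 of 28 macrophage markers and for 17 of 17 measured genes of the cell cycle (medians 0.23 and 0.24), and lower for 13 of 16 endothelial, 12 of 19 adipocyte, 6 of 10 lymphocyte, 8 of 8 mesothelial and 4 of 5 measured epididymis and testis genes (medians -0.17, -0.07, -0.11, -0.2 and -0.31), with 0 adjusted limma calls in any list. The mean of the macrophage list ran from -1.54 to 0.64 in Ctrl NR and from -1 to 0.59 in No NR. Within diets Rnu3b1 had r = 0.0215 with that mean (rho 0.0339, adjusted permutation p = 0.97). With adipocyte, endothelial and cell cycle genes r was 0.12, 0.128 and -0.0971 (rho 0.13, 0.0191 and -0.0617). None of these correlations of Rnu3b1 passed. The diet difference of Rnu3b1 with each list as a term was 0.67 to 0.71. That is a refit of the contrast that chose the set, and nothing is read from it. Fibrillarin had r = 0.627 with macrophage genes (rho 0.657, adjusted permutation p = 0.0184) and 0.709 with cell cycle genes (rho 0.703, adjusted permutation p = 0.00495). It ran against adipocyte genes (r = -0.692, rho -0.672, adjusted permutation p = 0.00495) and endothelial genes (r = -0.79, rho -0.741, adjusted permutation p = 0.00045). Those 4 relations had the same sign within each diet, with slide removed and without the 2 farthest mice, and the smallest size of r among these values was 0.569. They depend on the normalization: with median centring r turned to 0.669 for adipocyte and 0.805 for endothelial genes, and with the Cy5 signal alone all 4 lost the call (r = 0.428, 0.526, -0.501 and -0.624 for macrophage, cell cycle, adipocyte and endothelial genes). The macrophage relation also lost it without background subtraction (0.555) and with the authors' table (0.536). Of all features 11.3% had r over 0.5 with Fbl and 6.8% had r under -0.5. How far the 4 lists move together from mouse to mouse was not tested, so the 4 relations are not counted as separate. None of the other 7 proteins passed with any cell list, the nearest being Imp4 with adipocyte genes at r = -0.484 (rho -0.436, adjusted permutation p = 0.148).

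The named features most like Rnu3b1 within diets, over 24 mice, were Tm2d2 (r = 0.858), Rnu1b6 (0.832), Lsm3 (0.811), Snora74a (0.797) and Rab24 (0.77). The most opposite were Prmt1 (-0.804), Ino80d (-0.789), Cpox (-0.758), Lsm8 (-0.753) and B4galt1 (-0.743). Lsm3 and Lsm8 encode subunits of the ring that binds U6 RNA, and they stand at opposite ends. Prmt1 encodes an arginine methyltransferase. Each of these 10 had the same sign in both diets. Of all features 2.57% had r over 0.5 and 1.42% under -0.5 with Rnu3b1, and 0 of the 8 proteins were among them.

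The closest neighbours of each protein gene, like those of Rnu3b1, were picked as the highest r among named features and were not tested. Fbl was closest to Slc16a10 (r = 0.873), B4galt6 (0.856) and Kcnk13 (0.851), and Nop56 to Dis3l (0.701), Timm10 (0.699) and Mvd (0.692). Nop58 was closest to Nip7 (0.87), a factor of large-subunit assembly, Spry4 (0.848) and Elmod2 (0.826), and Snu13 to Il18bp (0.806), Zmat2 (0.767) and Smim11 (0.722). Rrp9 was closest to Tfpt (0.891), Hras (0.884) and Stip1 (0.854). Mphosph10 was closest to Sdccag8 (0.793), Ddx49 (0.778), a helicase of the small-subunit processome, and Ehbp1 (0.771). Imp3 was closest to Fbln5 (0.855), Smc1a (0.823) and Mbtps1 (0.811), and Imp4 to Htt (0.81), Exoc2 (0.782) and Ddx39a (0.766). No member was among the 3 closest of another.

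The rest of the ribosome assembly pathway was described from lists chosen with earlier results known, and in each list 0 genes had a limma adjusted p under 0.05. Of the UTP-A subcomplex, which binds the start of the precursor, 1 of 6 genes was higher and 5 were lower in No NR (median -0.08), with Wdr75 at 0.24 and Wdr43 at -0.11. Of UTP-B, which contacts U3 in the processome, 2 of 5 measured were higher and 3 lower (median -0.03), with Utp6 at 0.26 and Wdr36 at 0.24. Other processome factors numbered 38 measured, 16 higher and 22 lower (median -0.03), among them Dhx37, the helicase that releases U3, at -0.18 and Emg1 at 0.24. The factors that assemble box C/D particles were 1 higher and 6 lower of 7 (median -0.1), with Ruvbl1 at -0.12 and Znhit6 at -0.12. Genes for the transcription, capping and transport of U3 were 5 higher and 10 lower of 15 (median -0.03), with Smn1 at -0.18 and Nolc1 at -0.19. Every one of these medians lay within 0.1 of that of all features, -0.01.

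Neighbouring steps looked alike. The box H/ACA particle had 1 of 6 genes higher and 5 lower (median -0.07), with Nop10 at -0.17 and Gar1 at -0.08, and RNA polymerase I 4 of 13 higher and 9 lower (median -0.05), with Cd3eap (Polr1g) at -0.23 and Polr1a at -0.12. Large-subunit factors were 9 higher and 28 lower of 37 (median -0.04), with Nop53 at -0.25 and Pelp1 at -0.18. Nucleolar phosphoproteins were 2 higher and 3 lower of 5 (median -0.02), with Ncl, nucleolin, at 0.25 and Nolc1 at -0.19.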

How the data were processed

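RNA of eWAT from 24 mice (12 per diet) was read on 24 Agilent 2-colour arrays of 62976 spots. Linear spot intensity is what the deposited scanner files give; the authors used Agilent Feature Extraction 10.7.3.1, per the submitters' processing notes, and yes or no flags stand beside each spot per the file headers. In the authors' value table, 26384 features have log2 values. Its columns correlated with log2 Cy5 of their arrays (r at least 0.99) and not with log ratios (at most 0.18), and all had a median of 8.04; how they were scaled is not given in the sources used here.

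The genes and lists were chosen with earlier results of these data known. Median spot signals were background-corrected (limma 3.58.1 normexp, offset 50), loess-normalized within arrays and taken as log2 Cy5/Cy3. Mean spot signals had been planned, but median signals were used. Control spots and flagged outliers were left out. The filter kept probes that exceeded background clearly in 6 or more of 12 mice of either diet, and the brightest kept probe stood for a gene. This left 21051 features, 13014 of them named through RefSeq accessions. Diets were compared with lmFit and eBayes in R 4.3.3, without pairing, since nothing paired the mice, and the procedure was tested on simulated data. Within-diet correlations used 100000 permutations within diets, with Benjamini-Hochberg adjustment over 36 pairs of members, 45 pairs with cell lists or the unnamed probe, or 7 small RNAs. Lists give counts, medians and the 2 genes of lowest unadjusted p, and neighbours are those of highest or lowest r without clone names. Alternatives covered background, scaling, probe filter, slide and each mouse left out. List genes without a probe or a current name were not analysed here. P-values set a result against the spread between mice.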

Additional observations from a re-analysis of the deposited data

How the results depend on the processing

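Alternatives came to 14 processing settings and 24 left-out mice for the diet comparison, of which 9 settings (8 for Snora47) and the same mice were run for the correlations of Rnu3b1 with proteins and small RNAs, of 5 protein pairs and of Fbl with the cell lists; all but those of Rnu3b1 with proteins were added after the data had been seen. Neighbours and the other cell-list relations were not run under them. The Rnu3b1 difference kept its sign in all of them (0.57 to 0.96, and 0.62 to 0.74 with 1 mouse left out), as did those of Nop56, Nop58, Rrp9, Mphosph10 and Imp4. Fbl, Snu13 and Imp3 turned sign under some. The 0 features called became 3 among probes well above background on all arrays and 3 with a prior variance following intensity. With 1 mouse left out they ran from 0 to 227, with 227 without Ctrl NR mouse 68, 220 without 117, 80 without 104, 34 without 75 and 9 without 77, and 3 and 2 without No NR mice 78 and 118. Members called ran from 0 to 1, the 1 being Rnu3b1 without Ctrl NR mouse 68, 77, 104 or 117, a count from the contrast that chose the set and from which nothing is read.

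Pairs of Rnu3b1 and a protein called went from 0 to 8 with median centring and 2 with Cy5 alone, and stayed at 0 with any mouse left out. With median centring r with Rnu3b1 was 0.696 for Fbl, 0.693 for Nop58, 0.766 for Imp3 and 0.756 for Rnu12, and r was 0.878 for Rrp9 and Imp3, 0.939 for Nop56 and Imp3 and 0.962 for Imp3 and Imp4. With the processed signals r with Rnu3b1 was -0.0324 for Nop56, -0.0726 for Rrp9, 0.048 for Imp3 and 0.167 for Rnu12, and r was 0.0652 for Imp3 and Imp4. With Cy5 alone r with Rnu3b1 was -0.0859 for Snu13, -0.116 for Imp4, -0.0857 for Rn28s1 and 0.4 for Rnu2-10, which lost its call (adjusted permutation p = 0.129). Other turned signs were -0.104 for Mphosph10 with averaged probes, -0.132 for Rn28s1 with slide as a block, and, for Imp4, -0.0493 without background subtraction and -0.0612 with the authors' table. With 1 mouse left out r with Rnu3b1 ran from -0.0695 to 0.131 for Imp4, -0.0291 to 0.175 for Nop56, -0.00296 to 0.197 for Rrp9, -0.284 to 0.0657 for Rnu12 and -0.041 to 0.184 for Rn28s1. Small RNAs called with Rnu3b1 went from 3 to 6 with median centring and from 3 to 5 over left-out mice (5 without Ctrl NR mouse 68); Rnu1b6 (0.734 to 0.858) and Snora74a (0.685 to 0.8) passed in all 9 settings. The 4 protein pairs called by r became 2 with processed signals, 28 with median centring, 7 with Cy5 alone, 1 with the authors' table and 8 with averaged probes, and ran from 0 to 6 over left-out mice. Fbl had r = 0.669 with adipocyte and 0.805 with endothelial genes under median centring, and kept its 4 calls with any mouse left out. The causes were not tested. No paired analysis was possible because the diets share no animal number.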
